A study of Mus musculus with 8 samples.

Results

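The 10 genes described here encode parts of the 2 routes by which cells display peptides to T cells. Class I was represented by *B2m*, *H2-K1*, *H2-D1* and *Tap1*, and class II by *Cd74*, *Ciita*, *H2-Aa*, *H2-Ab1*, *H2-Eb1* and *H2-DMa*. They were found by their GENCODE M21 symbols among the 54838 Ensembl genes listed in each sample, and all 10 were present. A filter on low counts left 12405 genes for testing and kept 7 of the 10. *Ciita*, *H2-Aa* and *H2-Eb1* had too few reads to be tested, so the counts below are over the 7 that passed and not over all 10.

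MHC class I molecules stand on nearly all nucleated cells and show peptides from proteins made inside the cell to CD8+ T cells. Each is a heavy chain held by β2-microglobulin, loaded in the endoplasmic reticulum with peptides that the TAP transporter brings in. Class II molecules are made mainly by B cells, dendritic cells and macrophages, where the transactivator CIITA turns their genes on, the invariant chain CD74 guides them to the endosome and H2-DM exchanges the invariant-chain fragment for a peptide. Blasts in acute myeloid leukemia can carry both classes, and the class II level is known to vary between leukemias and with differentiation.

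Gene expression was measured by RNA-seq in *iMLL-AF9* mouse cells, which carry a doxycycline-inducible *MLL-AF9* fusion oncogene. The labels call them leukemic stem cells from bone marrow with the genotype WT, the methods place all mice on the C57BL/6 background and call the cells leukemic, and the series description calls them preleukemic. The 4 samples of one group received DMSO, the vehicle, and the 4 of the other IOX5, a selective inhibitor of the prolyl hydroxylase domain enzymes that mark hypoxia-inducible factor (HIF) for degradation. Both groups are numbered 1 to 4. Neither the dose, the time, the age of the donor mice nor what a replicate number stands for is given for these samples. No label says that the samples came from separate cultures or animals, so the p-values measure only the spread between these samples, which may be technical.

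The samples held between 12343770 and 14116054 reads on genes with DMSO and between 11351507 and 12708888 with IOX5, so that 3 reads correspond to 0.211 to 0.266 CPM (counts scaled to library size, here with factors from the trimmed mean of M values, TMM). Genes listed as markers of myeloid leukemic progenitors were expressed, among them *Ptprc* (359 to 554 CPM), *Mpo* (984 to 3915 CPM), *Hoxa9* (220 to 293 CPM) and *Meis1* (96.4 to 127 CPM). *Mpo* and *Cd34* (23.2 to 231 CPM), of the same list, were higher in numbers 3 and 4 than in 1 and 2 in both groups. IOX5 replicate 2 stood apart from the other samples. Its 10 macrophage markers summed to 535 CPM against 232 to 261 CPM in the other IOX5 samples and 151 to 213 CPM with DMSO, and its 5 eosinophil markers summed to 298 CPM against 37.2 to 50.1 and 23.7 to 88.7 CPM. Results that rest on this sample are given with and without it. These are bulk samples, in which more cells of one type and more RNA per cell cannot be told apart.

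All 7 tested genes had a positive log2 fold change with IOX5, with a median of 0.44 against 0.02 over all genes tested, of which 52.8% were positive. One of the 7, *H2-Ab1*, passed the filter on low counts through its IOX5 samples (13 to 21 reads, against 5 to 19 with DMSO). The filter thus favored a positive sign for *H2-Ab1*, and its direction is no support. Without IOX5 replicate 2 the median of the 7 was 0.30, against 0.0001 over all genes tested in that fit. Only *B2m* passed an adjusted p of 0.05 in edgeR's quasi-likelihood test without a block, where 0.774% of all genes were called higher and 1.25% lower. At an unadjusted p under 0.05 there were 4 of the 7, against 20.2% of all genes, and DESeq2 called *B2m* and *Tap1* higher, where it called 3.94% of all genes higher and 4.85% lower. With the replicate number as a block, 5 of the 7 were called higher (*B2m*, *Tap1*, *H2-DMa*, *H2-D1* and *H2-K1*) and 0 lower, against 11.2% and 9.43% of all genes. Of those 5, *B2m* alone was called with the block whichever number was left out. Leaving out number 3 ended the other 4 calls, and leaving out number 2 ended those of *H2-D1* and *H2-K1*. DMSO and IOX5 samples with a shared number departed from their groups in like ways, so blocked values stand beside the others. Numbers 3 and 4 were not told apart by this. DMSO sample 4 correlated at 0.685 with IOX5 sample 3 and at 0.636 with IOX5 sample 4. The block was thus inferred from the data, and calls made only with it depend on that. Within replicate numbers, 6 of the 7, *H2-Ab1* among them, were higher with IOX5 in all 4 numbers, which held for 21.3% of genes. In 3 (*B2m*, *H2-D1* and *H2-DMa*) the groups did not overlap, with IOX5 higher, which held for 5.98%.

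**Figure D1:**
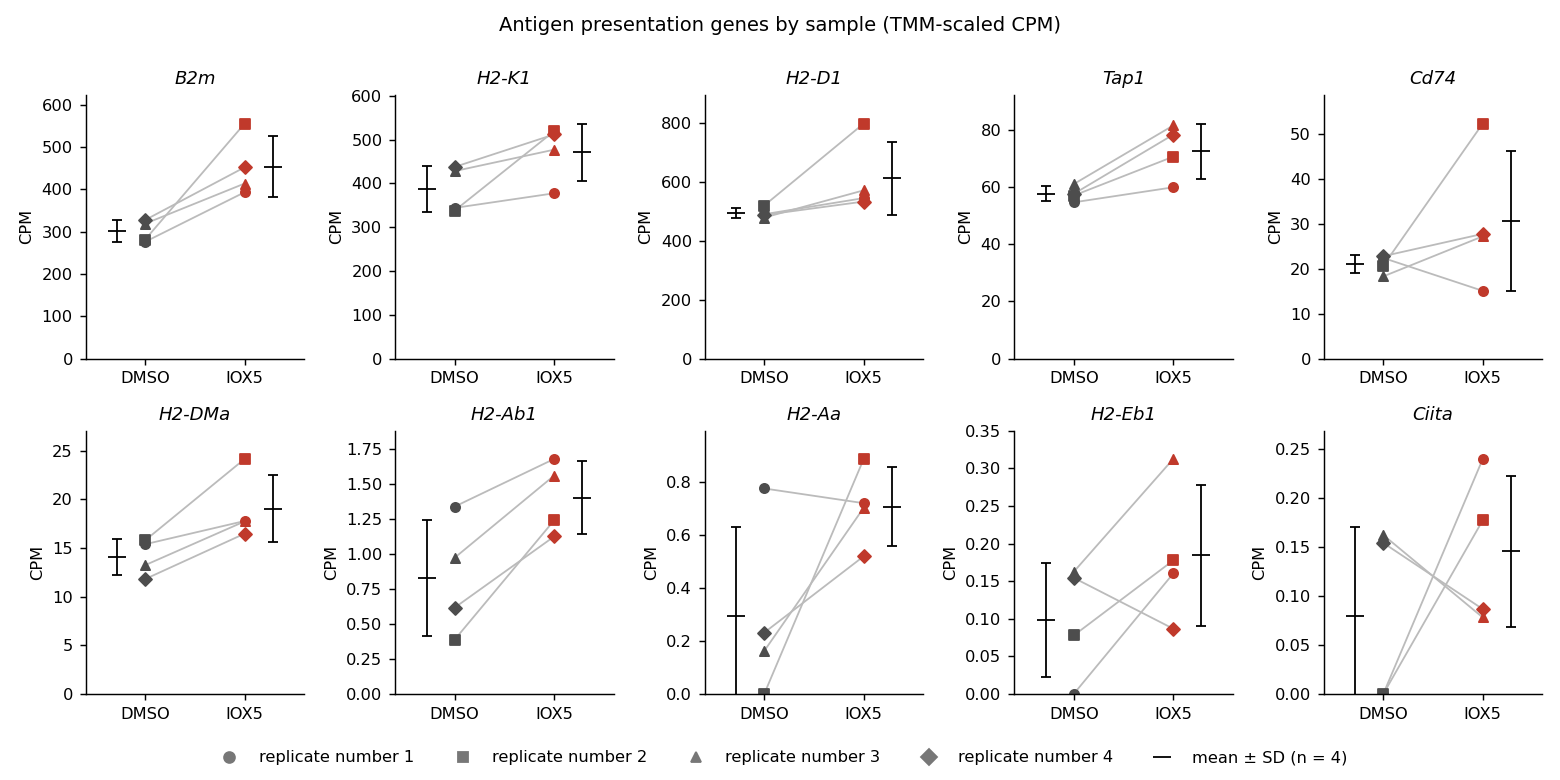
TMM-scaled CPM of the 10 genes in each of the 8 samples, with lines joining DMSO and IOX5 samples of the same replicate number and bars for the mean ± SD (n = 4 per group, bars that would pass below 0 end at the axis). *B2m*, *H2-D1* and *H2-DMa* did not overlap between groups, *Cd74* was lower with IOX5 in number 1 and highest in IOX5 replicate 2, and *H2-Ab1*, *H2-Aa*, *H2-Eb1* and *Ciita* stayed below 2 CPM.

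The genes fell into a high class I group and a class II group that ran from moderate to barely detected. Levels between genes were compared as CPM per kb of merged exons. In DMSO, *B2m* was highest at 350 ± 30.3 (SD, n = 4), followed by *H2-D1* at 192 ± 6.88 and *H2-K1* at 132 ± 18.1, with no overlap between neighbors. *Cd74* (12.5 ± 1.22) and *Tap1* (10.5 ± 0.481) came next, and their samples overlapped. *H2-DMa* followed at 4.08 ± 0.542. *H2-Ab1* was at 0.324 ± 0.162, and it overlapped with *H2-Aa* at 0.0771 ± 0.0887, which overlapped with *H2-Eb1* at 0.0508 ± 0.0391, which overlapped with *Ciita* at 0.00831 ± 0.0096. The order of the means was the same with IOX5, where *Cd74* and *Tap1* overlapped again (18.2 ± 9.31 and 13.3 ± 1.76), as did *H2-Aa* and *H2-Eb1* (0.187 ± 0.0396 and 0.0948 ± 0.0485), whereas *H2-Ab1* (0.547 ± 0.102) stood above *H2-Aa* in every sample. The invariant chain was thus present at a level about that of *Tap1*, while the class II chains that it accompanies lay near the detection limit.

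**Figure D2:**
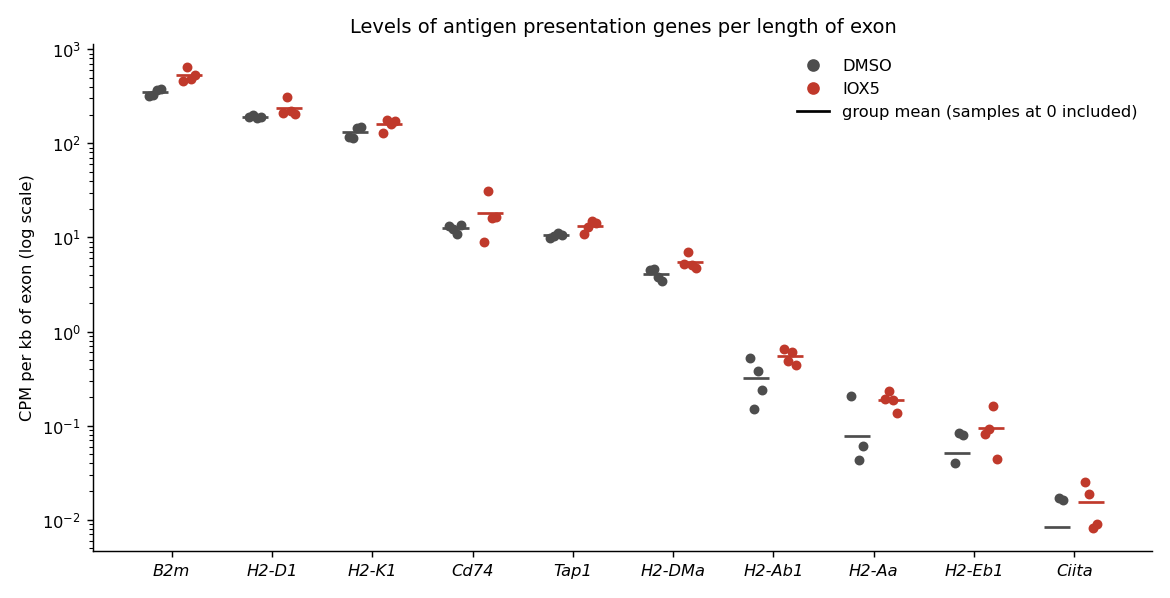
CPM per kb of exon (log scale) of the 10 genes in order of their DMSO mean, 1 point per sample and a line for each group mean. Points at 0 cannot be drawn on this scale: 1 DMSO sample of *H2-Aa*, 1 of *H2-Eb1* and 2 of *Ciita*. The 3 genes of the class I molecule lie above 100, and the class II chains and *Ciita* lie below 1.

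*B2m*, the invariable light chain of every class I molecule (chr2:122147686-122153083, plus strand, GRCm38), rose with IOX5. It was at 276, 281, 319 and 328 CPM in DMSO samples 1 to 4 and at 394, 556, 414 and 453 CPM in IOX5 samples 1 to 4. Every IOX5 sample lay above every DMSO sample, and IOX5 replicate 2 was the highest. The log2 fold change was 0.59 (SE 0.11), with an adjusted p of 0.0422 by edgeR and 0.000807 with the block, and the exact permutation test of the samples gave p = 0.0286, the smallest that 4 against 4 can reach. The rise did not depend on IOX5 replicate 2: without it the log2 fold change was 0.48 (edgeR adjusted p = 0.0451), and with the block and without number 2 it was 0.45 (edgeR adjusted p = 2.44e-05). Leaving out any other sample kept the size between 0.55 and 0.66 but took the adjusted p to between 0.0509 and 0.119.

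The bases upstream of *B2m* are shown because they hold elements through which class I promoters are usually described. Among these are an interferon regulatory factor (IRF) site and a CCAAT box bound by NF-Y. The sequence is from RefSeq (GRCm38.p6, chr2:122147507-122147676, plus strand), from 180 to 11 bases before the annotated start, written 5′ to 3′ with matches to GAAANNGAA and to CCAAT (on either strand) in capitals.
B2m: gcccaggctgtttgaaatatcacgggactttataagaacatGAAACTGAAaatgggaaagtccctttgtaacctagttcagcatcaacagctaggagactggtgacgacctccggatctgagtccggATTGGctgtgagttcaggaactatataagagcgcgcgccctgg

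Among 32851 RefSeq windows of 250 bases before and 50 after a start, 8.56% held GAAANNGAA and 37.4% held CCAAT. Of the 10 genes, 7 had a window, while *Cd74*, *Ciita* and *H2-Ab1* had none and were not searched. *B2m* was the 1 of the 7 with GAAANNGAA, and all 7 held CCAAT in a window of at least 1 of their starts. The core letters of a HIF site, ACGTG, were in 19.6% of all windows and in 0 of these 7. Related genes did hold them: 4 of 11 other class I heavy chains with a window (*H2-M3*, *H2-Q4*, *H2-Q7* and *H2-T22*), 3 of 9 genes of the other class II list, and *Cd274*. These are matches of letters in a short window and say nothing of what binds there.

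*H2-K1*, one of the classical class I heavy chains that bind the peptide (chr17:33996017-34000347, minus strand), differed by less. It was at 344, 338, 428 and 437 CPM with DMSO and at 377, 519, 477 and 512 CPM with IOX5. The lowest IOX5 sample lay inside the DMSO range, since samples 3 and 4 were higher than 1 and 2 in the DMSO group, but within each number the IOX5 sample was higher. The log2 fold change was 0.28 (SE 0.13), with an edgeR adjusted p of 0.250 without the block and 0.0259 with it. With the block, the adjusted p by edgeR was 0.0824 without number 2, where the log2 fold change was 0.17, and 0.0704 without number 3.

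*H2-D1*, the other classical heavy chain (chr17:35262730-35267499, plus strand), was at 490, 520, 479 and 488 CPM with DMSO and at 545, 799, 572 and 533 CPM with IOX5. The groups did not overlap, but 3 of the 4 IOX5 samples lay within about 100 CPM of the DMSO samples and replicate 2 far above them. A log2 fold change of 0.31 resulted (SE 0.13, edgeR adjusted p = 0.213, 0.0241 with the block). Without IOX5 replicate 2 it was 0.15 (edgeR adjusted p = 0.183), and with the block and without number 2 it was 0.18 (edgeR adjusted p = 0.0727). The call with the block was also lost without number 3 (edgeR adjusted p = 0.101).

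Both heavy chains belong to a family of close copies. Of the 85-base stretches of their annotated transcripts, the length of a read, 1.95% of those of *H2-K1* and 4.63% of those of *H2-D1* also occur in another gene, most often *H2-Q10* and *H2-Q1*, and how the counting treated such reads is not stated in detail. *B2m*, *Tap1*, *Cd74*, *Ciita*, *H2-Aa*, *H2-Ab1*, *H2-Eb1* and *H2-DMa* share 0 such stretches. The likeness extends upstream. Of κB sites, only the letters GGGGATTCC, known from class I promoters, were searched for. Other forms, in *B2m* or elsewhere, would not show. These 9 letters occur in 0.25% of all RefSeq windows, and in *H2-K1*, *H2-D1*, *H2-Q6* and *H2-Q7*. They are shown with 8 bases on each side, because they are the element these promoters share and most others lack (capitals mark the 9 letters, GRCm38.p6, chr17:34000442-34000466 minus strand, chr17:35262915-35262939, chr17:35424669-35424693 and chr17:35439014-35439038 plus strand).
H2-K1: ccagggctGGGGATTCCccatctcc
H2-D1: ccagggctGGGGATTCCccatctcc
H2-Q6: ccatggctGGGGATTCCccatctcc
H2-Q7: ccatggctGGGGATTCCcatctccc

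The 25 bases of *H2-K1* and *H2-D1* are identical, and 24 of 25 match in *H2-Q6*. Compared position by position, *H2-Q7* matches *H2-K1* and *H2-D1* at 19 of 25 and *H2-Q6* at 20 of 25. In *H2-K1* the 9 letters begin 111 bases before the start, in *H2-D1* 171.

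*B2m* was also higher relative to both heavy chains with IOX5. Within samples, the log2 ratio of *B2m* to *H2-K1* was -0.35 ± 0.08 (SD, n = 4) with DMSO and -0.06 ± 0.16 with IOX5, a difference of 0.30 that was positive in 4 of 4 replicate numbers (exact two-sided permutation p = 0.0286, the smallest possible). The ratio to *H2-D1* was -0.72 ± 0.16 with DMSO and -0.42 ± 0.13 with IOX5, a difference of 0.29 (exact permutation p = 0.0286, 4 of 4 numbers). Samples of the 2 groups did not overlap in either ratio. This measure was chosen after the fold changes had been seen. Without IOX5 replicate 2 the differences were 0.25 and 0.33, with exact permutation p of 0.0286 and 0.0571.

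*Tap1*, a subunit of the peptide transporter (chr17:34187553-34197225, plus strand), was at 54.6, 57.0, 61.0 and 57.6 CPM with DMSO and at 59.9, 70.6, 81.5 and 78.3 CPM with IOX5. The samples of number 1 were the lowest of each group, and IOX5 replicate 1 lay inside the DMSO range. IOX5 replicate 3, not 2, was the highest. The log2 fold change was 0.33 (SE 0.10), with an edgeR adjusted p of 0.105 without the block, 0.00685 with it and 0.00335 to 0.069 with the block and each number left out, the highest without number 3. The DESeq2 adjusted p was 0.0308. RefSeq places its start 226 bases from that of *Psmb9*, an immunoproteasome subunit on the other strand. GENCODE exons of the pair overlap by 212 bases, and the counts told strands apart (105071 reads on *Xist* against 21 on its antisense partner *Tsix*).

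The other steps of class I loading were mixed in direction. Of 12 genes for peptide supply and loading, all tested, 8 had a positive and 4 a negative fold change, with a median log2 of 0.13. The edgeR test without a block called 0 of them (5 at an unadjusted p under 0.05, 3 by DESeq2), and with the block 4 were called higher and 0 lower. Of all genes, 20.2% had an unadjusted p under 0.05, and DESeq2 called 3.94% higher. The block called 11.2% of all genes higher and 9.43% lower. *Tap2*, the partner of *Tap1*, was at 107 to 135 CPM with DMSO and 139 to 198 CPM with IOX5, without overlap (log2 fold change 0.45, SE 0.12, edgeR adjusted p = 0.0917, 0.000802 with the block). *Psmb9* ran from 20.8 to 30.9 and from 31.6 to 47.2 CPM (0.54, SE 0.17, edgeR adjusted p = 0.123, 0.00117 with the block), also without overlap. *Psmb8*, another immunoproteasome subunit, had a log2 fold change of 0.38 (edgeR adjusted p = 0.286, 0.0014 with the block), and *Psme1*, of the proteasome activator PA28, one of 0.25 (edgeR adjusted p = 0.0959, 0.0126 with the block). With each number left out of the block, *Psme1* was called in 2 of 4 fits and *Tap2*, *Psmb9* and *Psmb8* in 4 of 4. The most abundant genes of the list are general chaperones of the endoplasmic reticulum. *Calr* was at 2650 to 3084 CPM with DMSO and 2541 to 3415 CPM with IOX5 (log2 fold change 0.07, edgeR adjusted p = 0.722), and *Canx* was at 1217 to 1372 and 1129 to 1218 CPM (-0.17, edgeR adjusted p = 0.160).

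The other class I heavy chains were positive in 12 of 12 tested, with a median log2 of 0.34. The edgeR test called 0 without the block (2 at an unadjusted p under 0.05, against 20.2% of all genes, 1 by DESeq2). With the block it called 2 higher, where 11.2% of all genes were. *H2-T23*, the gene of Qa-1, a ligand of inhibitory NK-cell receptors, was at 74.3, 39.0, 48.7 and 50.9 CPM with DMSO and at 118, 68.2, 82.5 and 66.5 CPM with IOX5. Its groups overlapped because number 1 was high in both, and its log2 fold change was 0.65 (SE 0.23, edgeR adjusted p = 0.165, 0.000189 with the block). *H2-Q6* was low, at 0.933 to 2.61 CPM with DMSO and 1.99 to 3.28 CPM with IOX5 (0.76, SE 0.35, edgeR adjusted p = 0.263, 0.0311 with the block), and 14.4% of its 85-base stretches occur in other genes. With each number left out of the block, *H2-Q6* was called in 1 of 4 fits and *H2-T23* in 4 of 4. *H2-T22* was second in level at 23.6 to 28.4 and 24.9 to 34.0 CPM (0.23, edgeR adjusted p = 0.335), with 13.7% of its stretches shared. In all, 17 of the 18 genes of this list are in the files, and 1 of them, *H2-T3*, had 0 reads. The C57BL/6 haplotype carries no *H2-L*, the gene of the list without an entry.

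**Figure D3:**
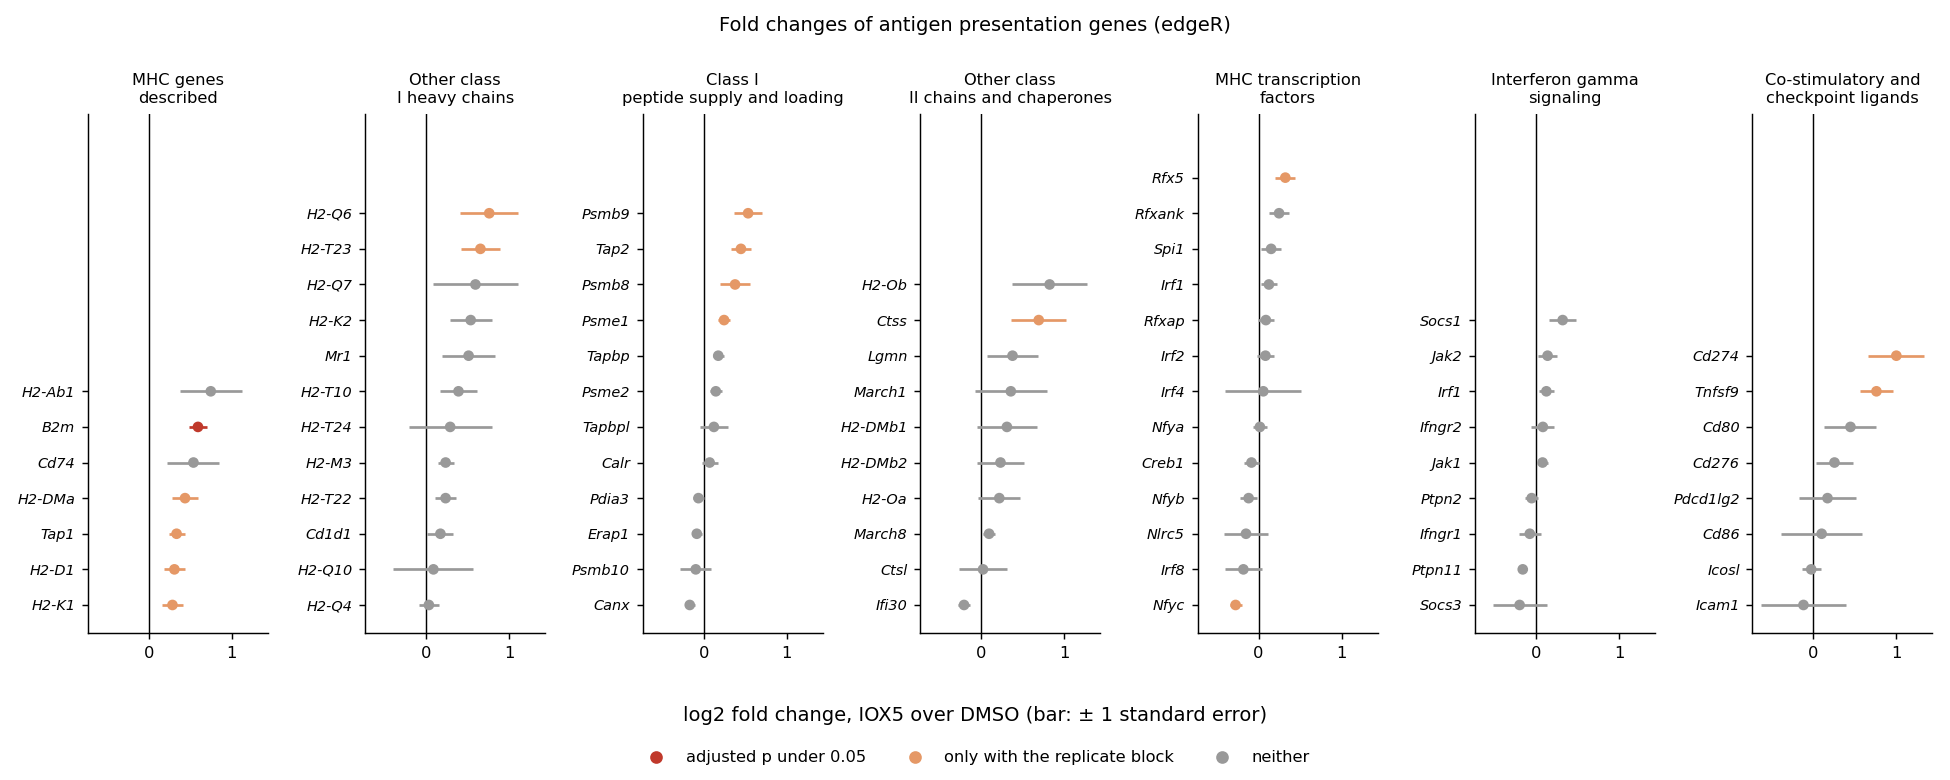
Log2 fold changes of IOX5 over DMSO (edgeR, bars ± 1 standard error) for the 7 tested genes described here and for genes of 6 related lists. *B2m* alone passed without the block, and 15 others passed only with it, of which *Nfyc* alone was lower with IOX5. Of all genes tested, 11.2% passed as higher and 9.43% as lower with the block. *Irf1* stands in 2 of the lists.

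*Cd74*, the class II invariant chain and also a receptor for the cytokine MIF (chr18:60803848-60812652, plus strand), varied more between IOX5 samples than between groups. It was at 22.4, 20.7, 18.3 and 22.8 CPM with DMSO and at 15.1, 52.3, 27.2 and 27.7 CPM with IOX5. The IOX5 group held both the lowest sample of all, number 1, and the highest, number 2. The log2 fold change was 0.54 (SE 0.31, edgeR adjusted p = 0.378, 0.141 with the block), and the exact permutation p was 0.343. Without IOX5 replicate 2 the log2 fold change was 0.15 (edgeR adjusted p = 0.721), and with the block and without number 1 it was 0.74 (edgeR adjusted p = 0.00718), the 1 fit of those run that called it. An exon of the microRNA gene *Mir5107* covers 12 bases of *Cd74* on the same strand.

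*H2-DMa*, a chain of the peptide exchanger H2-DM (chr17:34119541-34139101, plus strand), showed the steadier difference of the class II genes. It was at 15.4, 15.8, 13.2 and 11.8 CPM with DMSO and at 17.8, 24.2, 17.7 and 16.5 CPM with IOX5. The groups did not overlap, and IOX5 replicate 2 was again the highest. IOX5 gave a log2 fold change of 0.44 (SE 0.15, edgeR adjusted p = 0.160, 0.0100 with the block). Without the block and with each sample left out in turn, it ran from 0.30 to 0.50. The edgeR adjusted p then ran from 0.119 to 0.332, and 0 of those 8 fits called it. With the block and without number 2 the log2 fold change was 0.36 (edgeR adjusted p = 0.0252). Without number 3 the adjusted p with the block was 0.0578 by edgeR. Its exons overlap by 360 bases with *Brd2* on the opposite strand.

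The chains of the class II molecule itself were at the edge of detection. *H2-Ab1*, the β chain of I-A (chr17:34257689-34269419, plus strand), had 112 reads in all 8 samples, at 1.34, 0.389, 0.975 and 0.618 CPM with DMSO and 1.68, 1.24, 1.56 and 1.13 CPM with IOX5. The groups overlapped through DMSO replicate 1. It was higher with IOX5 in 4 of 4 numbers, but its log2 fold change of 0.75 (SE 0.37) had an edgeR adjusted p of 0.301, and 0.0826 with the block. *H2-Aa*, the α chain (chr17:34282744-34287823, minus strand), had 16 reads with DMSO and 34 with IOX5, at 0.776, 0, 0.162 and 0.232 CPM and at 0.721, 0.888, 0.703 and 0.520 CPM. The difference came from DMSO samples 2 to 4, because number 1 was as high with DMSO as with IOX5. *H2-Eb1*, the β chain of I-E (chr17:34305867-34316674, plus strand), had 5 and 9 reads, with no sample above 0.313 CPM. In C57BL/6 mice I-E does not reach the surface, because the gene of its α chain is defective.

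*Ciita*, the class II transactivator (chr16:10480059-10528418, plus strand), had 4 reads with DMSO, of which 2 fell in sample 3 and 2 in sample 4, and 7 with IOX5, between 1 and 3 per sample. No sample exceeded 0.240 CPM, and no difference was detectable at this depth. In a fit without the filter on low counts, the log2 fold changes of *Ciita*, *H2-Aa* and *H2-Eb1* were 0.85, 1.21 and 0.90, with edgeR adjusted p of 0.663, 0.545 and 0.597. A further 329 bases of *Ciita* exons are shared with *Dexi* on the opposite strand.

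The paired elements upstream of class II genes are shown because this arrangement, an RFX half-site followed by an NF-Y site, is the platform on which CIITA acts. GCAAC followed by ATTGG with 10 to 35 bases between was in 1.22% of all RefSeq windows (both strands searched). Of the 7 genes described here with a window, 2 held the pair, *H2-Aa* and *H2-Eb1*. *H2-DMa*, the other class II gene with a window, did not, and *Cd74*, *Ciita* and *H2-Ab1* could not be searched. The pair was in 3 of 9 windows of the other class II list, *H2-Oa*, *H2-Ob* and *H2-Eb2*. It was in 0 of the 11 windows of the other class I heavy chains. The pairs are printed with 8 bases on each side, with GCAAC and ATTGG in capitals (GRCm38.p6, chr17:34287859-34287912 minus strand, then chr17:34305768-34305820, chr17:34238810-34238860 and chr17:34325535-34325587 plus strand).
H2-Aa: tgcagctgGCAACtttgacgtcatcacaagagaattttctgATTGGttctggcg
H2-Eb1: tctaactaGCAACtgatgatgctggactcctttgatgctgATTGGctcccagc
H2-Ob: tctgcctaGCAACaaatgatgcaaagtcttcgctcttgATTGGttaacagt
H2-Eb2: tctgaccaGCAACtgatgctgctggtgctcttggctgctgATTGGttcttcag

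The elements were 28 bases apart in *H2-Aa*, 27 in *H2-Eb1* and *H2-Eb2* and 25 in *H2-Ob*, and in *H2-Aa* GCAAC began 81 bases before the start. Among the genes printed, *H2-Ob* reached at most 2.66 CPM and *H2-Eb2* had 3 reads in all.

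**Figure D4:**
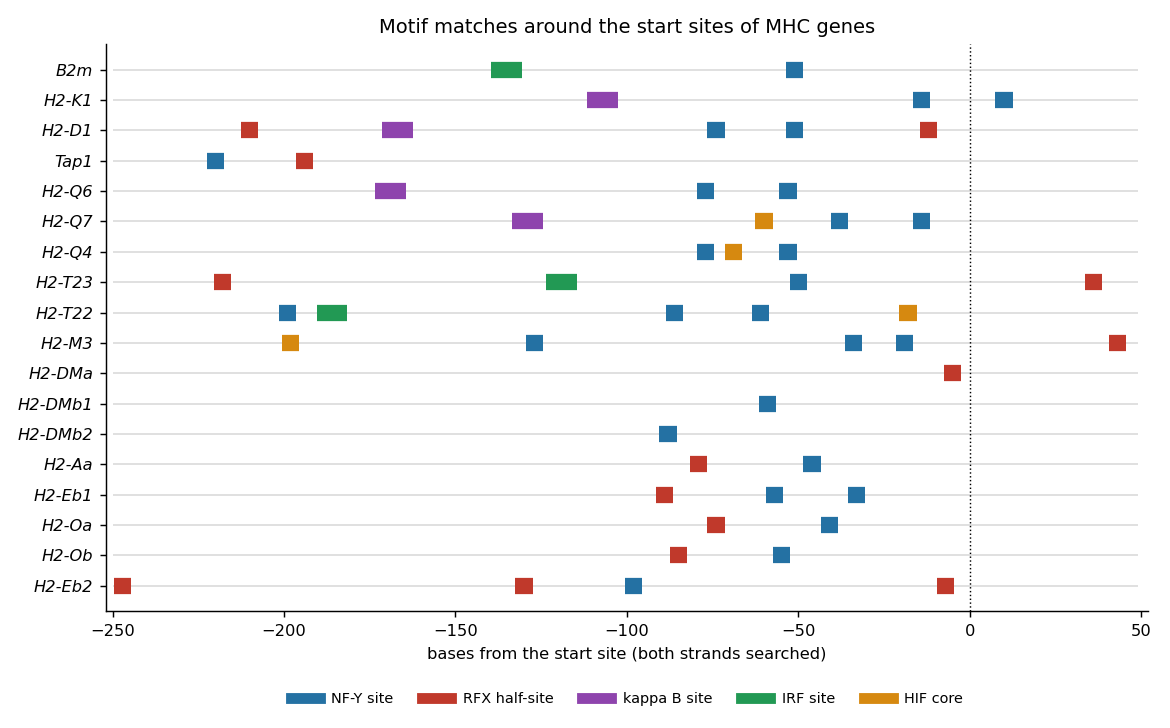
Positions of letter matches to 5 motifs within 250 bases before and 50 after the RefSeq start (dotted line, 0), 1 start per gene, for class I genes (upper) and class II genes (lower). The κB letters GGGGATTCC are in *H2-K1*, *H2-D1*, *H2-Q6* and *H2-Q7*, and the IRF letters in *B2m*, *H2-T23* and *H2-T22*. An RFX half-site with an NF-Y site after it is in the 5 class II genes at the bottom. Other forms of these sites were not searched for, so a gene without a mark may still hold one. The HIF core letters are in *H2-Q7*, *H2-Q4*, *H2-T22* and *H2-M3*.

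The remaining class II machinery was positive in 9 of 10 tested, with a median log2 of 0.27 that became 0.03 without IOX5 replicate 2. The edgeR test called 0 without the block (1 at an unadjusted p under 0.05, against 20.2% of all genes, 0 by DESeq2). With the block it called 1 higher, where 11.2% of all genes were. That gene was *Ctss*, the cathepsin that trims the invariant chain, at 83.9, 119, 70.1 and 90.5 CPM with DMSO and at 93.0, 268, 106 and 122 CPM with IOX5. IOX5 replicate 2 lay far above all others, as it did for the macrophage markers. Its log2 fold change was 0.69 (SE 0.33, edgeR adjusted p = 0.280, 0.00426 with the block), and 0.24 without that sample (edgeR adjusted p = 0.474). *Ctsl*, a related protease of thymic epithelium and many other cells, ran from 154 to 260 CPM with DMSO and from 137 to 342 CPM with IOX5, with a log2 fold change of 0.02 that turned negative with the block (-0.04) and without IOX5 replicate 2 (-0.34).

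Among the regulators of MHC transcription, of 14 tested, 9 were positive and 5 negative, with a median log2 of 0.06. Without the block 0 were called (2 at an unadjusted p under 0.05, against 20.2% of all genes, 1 by DESeq2). With the block 1 was called in each direction, where 11.2% and 9.43% of all genes were. *Rfx5*, a subunit of the factor that binds the RFX half-site, was at 21 to 25.8 CPM with DMSO and 24.8 to 34.0 CPM with IOX5 (log2 fold change 0.32, SE 0.12, edgeR adjusted p = 0.181, 0.0200 with the block). *Nfyc*, a subunit of NF-Y, was at 38.5 to 44.3 and 32.4 to 36.3 CPM, with every IOX5 sample below every DMSO sample (-0.28, SE 0.07, edgeR adjusted p = 0.0822, 0.0199 with the block). Each of the pair was called in 2 of 4 fits with a number left out of the block. *Nfya*, another subunit, was at 88.4 to 109 and 91.7 to 110 CPM (0.02, edgeR adjusted p = 0.938), and *Spi1*, the myeloid factor PU.1, at 212 to 269 and 228 to 324 CPM (0.15, edgeR adjusted p = 0.528). *Nlrc5*, the transactivator of class I genes and the counterpart of *Ciita*, was at 12.4 to 20.6 and 11 to 24.2 CPM (-0.15, SE 0.26, edgeR adjusted p = 0.789) and was lower with IOX5 in 3 of 4 numbers. It is named outside the rule for named genes, as is *Irf1*, for their known roles.

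Interferon gamma is the best known inducer of both classes. *Ifng* itself had 0 reads in all 8 samples, which allows at most 0.211 to 0.266 CPM per sample, a limit from counting error only. Of the 10 genes of its signaling that were tested, 6 were positive and 4 negative, with a median log2 of 0.07. Here edgeR called 0 with or without the block (1 at an unadjusted p under 0.05, against 20.2% of all genes, 1 by DESeq2). With the block 11.2% of all genes were called higher and 9.43% lower. *Jak1*, a kinase of the receptor, was at 229 to 246 CPM with DMSO and 235 to 280 CPM with IOX5 (0.08, edgeR adjusted p = 0.556). *Ptpn11*, the gene of the phosphatase SHP-2, was at 211 to 222 and 189 to 201 CPM without overlap (-0.16, SE 0.05, edgeR adjusted p = 0.117, DESeq2 adjusted p = 0.0216). *Irf1*, a transcription factor that interferon gamma induces, had a log2 fold change of 0.13 (SE 0.09, edgeR adjusted p = 0.483).

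Ligands that T cells read together with the MHC were also examined. Of 8 tested, 6 were positive and 2 negative, with a median log2 of 0.21, and edgeR called 0 without the block (2 at an unadjusted p under 0.05, 2 by DESeq2). With the block it called 2 higher. Among all genes, 20.2% had an unadjusted p under 0.05, DESeq2 called 3.94% higher and the block 11.2%. *Cd274*, the checkpoint ligand PD-L1 and a known HIF target, was at 21.8, 20.5, 15.4 and 17.1 CPM with DMSO and at 33.2, 68.8, 24.3 and 23.3 CPM with IOX5. The groups did not overlap, and IOX5 replicate 2 was the highest. Its log2 fold change was 0.999 (SE 0.34, edgeR adjusted p = 0.147, 0.00253 with the block), and 0.53 without that sample (edgeR adjusted p = 0.145). *Tnfsf9*, the gene of 4-1BB ligand, was at 5.79 to 8.24 and 7.77 to 12.9 CPM (0.76, SE 0.20, edgeR adjusted p = 0.0799, 0.00245 with the block). *Icam1*, an adhesion partner of LFA-1 on T cells, was at 23.7 to 81.3 and 23.1 to 86.9 CPM, with numbers 1 and 2 above numbers 3 and 4 in both groups (-0.12, SE 0.52, edgeR adjusted p = 0.923).

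The samples were checked for cells that carry class II constitutively, and also for T and NK cells. For comparison, 20.2% of all genes had an unadjusted p under 0.05, and 11.2% were called higher with the block. Of 7 B-cell markers, *Ms4a1* was at 0, *Cd79a* had 9 reads and *Pax5* 4 in all samples, while *Cd79b* had 478 (2.86 to 8.40 CPM). Of the 3 tested, 0 were called without the block (0 at an unadjusted p under 0.05, 0 by DESeq2) and 1 with it, *Cd22*, a B-cell lectin with 121 reads in all (log2 fold change 1.0, edgeR adjusted p = 0.433, 0.0427 with the block). The summed level, most of it *Ighm*, was 41.8 to 69.5 CPM with DMSO and 49 to 87.1 CPM with IOX5. Of 9 T- and NK-cell markers, *Cd3g*, *Cd4*, *Cd8a* and *Ncr1* were at 0, and only *Nkg7*, a granule protein gene, was tested (log2 fold change 0.57, edgeR adjusted p = 0.629). It was called higher with the block (edgeR adjusted p = 0.00238), at 4.87 to 18.2 CPM with DMSO and 6.89 to 26.5 CPM with IOX5. Of 9 dendritic-cell markers, *Clec9a* had 1 read, *Siglech* 3 and *Xcr1* 9, the last with 9 in DMSO and 0 in IOX5. Only 3 were tested (*Itgax*, *Flt3* and *Clec10a*). Those 3 were called higher with the block and 0 without it (1 at an unadjusted p under 0.05, 0 by DESeq2). The summed level of the 9 was 7.23 to 16.0 CPM with DMSO and 14.9 to 29.4 CPM with IOX5.

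Macrophage markers were highest in the same sample as several of the MHC genes. Of 10, 8 were tested and all 8 were positive, with a median log2 of 0.96, or 0.61 without IOX5 replicate 2. The edgeR test called 0 without the block (3 at an unadjusted p under 0.05, against 20.2% of all genes, 2 by DESeq2). With the block it called 4 higher, *Adgre1*, *Mertk*, *Mrc1* and *Siglec1*, where 11.2% of all genes were. None of the 10 was at 0 in all samples, but *C1qa* and *Vcam1* had 21 and 15 reads. IOX5 replicate 2 was the highest sample for this list and for *B2m*, *H2-K1*, *H2-D1*, *H2-DMa*, *Cd74* and *H2-Aa*. The part of these cells in the differences of the MHC genes was not tested. All 7 mast cell and basophil markers were tested and called higher with the block, with a median log2 of 0.90, and edgeR called 0 without it (0 at an unadjusted p under 0.05, 0 by DESeq2). Their summed level was 160 to 600 CPM with DMSO and 258 to 998 CPM with IOX5, with numbers 3 and 4 the highest in each group.

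**Figure D5:**
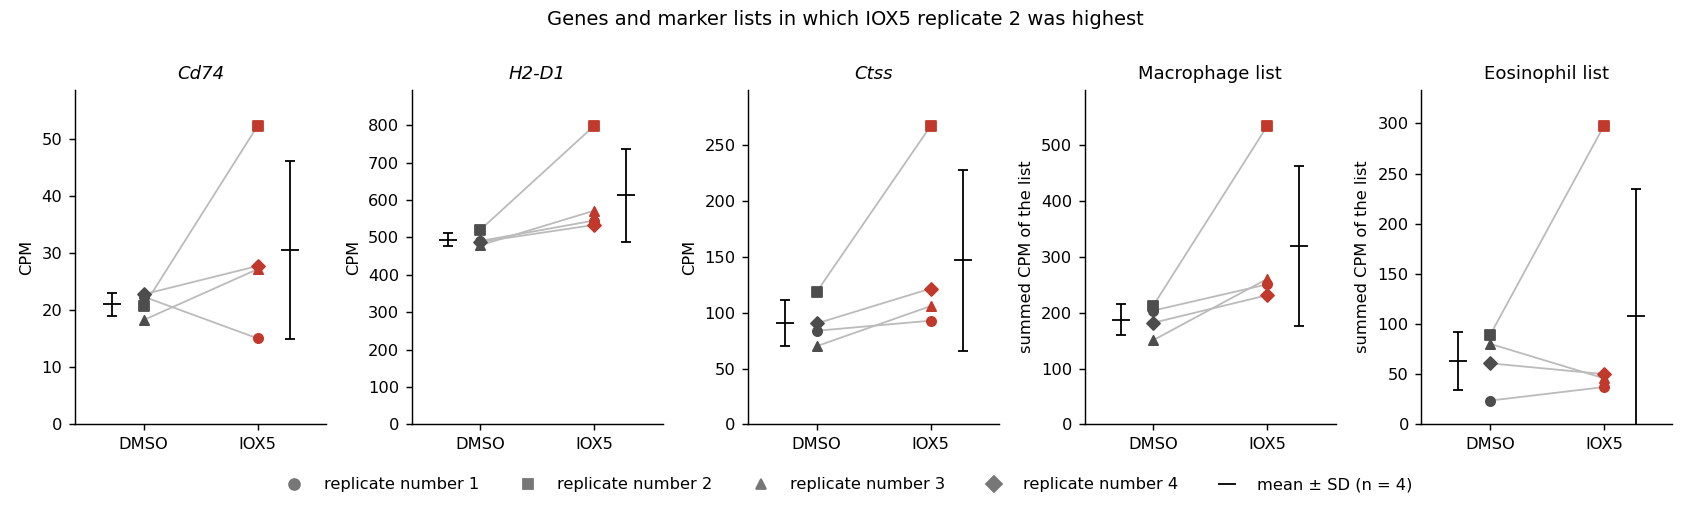
CPM of *Cd74*, *H2-D1* and *Ctss* and summed CPM of the macrophage list (10 genes) and the eosinophil list (5 genes) in each sample, with lines joining samples of the same replicate number and bars for the mean ± SD (n = 4 per group, bars that would pass below 0 end at the axis). IOX5 replicate 2 was the highest sample in all 5 panels.

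The genes whose log2 CPM ran most nearly in parallel with *Cd74* over the 8 samples, among 9896 with a mean of at least 5 CPM, were *Dpp7* (Pearson r = 0.966), *C77080* (0.957), *Mcub* (0.950), *Capn2* and *Ano10* (both 0.946). For *B2m* they were *Rab7b* (0.985), *Atp6v1d* (0.982), *Gabarap* (0.978), *Alcam* (0.976) and *Gapdh* (0.973). These values are a description over 8 samples that share the treatment, and were picked as the highest of 9896. *Rab7b*, *Atp6v1d* and *Gabarap* encode proteins of endosomes, the lysosomal proton pump and autophagosomes, and *Gapdh* a glycolytic enzyme.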

How the data were processed

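RNA-seq was measured in 8 samples, 4 with DMSO and 4 with IOX5, grouped by their labels. Poly(A) RNA was made into directional libraries and read as 85-base single ends. Per the labels and the methods, the authors trimmed with Cutadapt 1.18, aligned with HISAT2 2.2.1 to GRCm38 and counted with HTSeq 2.0.1. The deposited values are raw counts per Ensembl gene for each sample, without normalization. The annotation release and strand setting of the counting are not given in the sources used here. Summary lines (20.6% to 22.6% of the total) were left out. The labels do not say what the replicate numbers mark.

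Symbols, exon lengths and coordinates were taken from GENCODE M21, in which 54809 of 54838 identifiers were found. Counts were filtered with filterByExpr, scaled by TMM (factors 0.988 to 1.03) and tested with edgeR 4.0.16 (R 4.3.3) by the quasi-likelihood test with Benjamini-Hochberg adjustment over 12405 genes, called at an adjusted p under 0.05. The common coefficient of biological variation was 0.202. For log2 CPM the prior count was 2, and exact permutation tests (two-sided) ran over 70 assignments. Same-numbered samples deviated together (correlations of deviations from group means 0.636 to 0.758 for the 4 numbers, at most 0.685 between different numbers), so the number was fitted as a block. That pairing was read from the data and not from the labels. It did not separate numbers 3 and 4, as DMSO sample 4 correlated more with IOX5 sample 3 (0.685) than with IOX5 sample 4 (0.636). Other alternatives were DESeq2 1.42.0, RLE and upper-quartile factors, other filters and each sample left out. Steps were tested on simulated data.

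The members, gene lists and tests were chosen with earlier results of these data known. Named were all 10 genes, from each related list the genes called with or without the block (at most 4, by adjusted p) and the 2 with the highest CPM, and the 5 genes most like *Cd74* and *B2m*. Counts over lists include genes that are not reported here by name. Counting intervals and limits cover counting error only. Promoter sequences and motif shares are from RefSeq (GRCm38.p6).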

Additional observations from a re-analysis of the deposited data

Results flagged for a closer look

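Among 76 groups of 4 samples examined for the genes and marker lists named, 10 held a sample whose gap to the nearest other exceeded Dixon's critical value, where chance alone gives about 1 in 20. IOX5 replicate 2 was the highest of its group by this measure for *H2-D1* at 798.6 CPM (others 533.4 to 571.6), *H2-DMa* at 24.16 CPM (16.48 to 17.78), *Ctss* at 267.7 CPM (92.98 to 121.8), the summed macrophage markers at 535.0 CPM (231.5 to 260.9) and the summed eosinophil markers at 297.7 CPM (37.24 to 50.13). DMSO replicate 1 was the highest for *H2-Q6* at 2.612 CPM (0.9333 to 1.219) and *H2-T22* at 28.38 CPM (23.63 to 23.81), and the lowest for *Canx* at 1217 CPM (1348 to 1372). DMSO replicate 2 was the lowest for *Tap2* at 107.2 CPM (130.7 to 134.9), and IOX5 replicate 1 for *Tnfsf9* at 7.768 CPM (12.58 to 12.88).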

How the results depend on the processing

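Of the 10 genes, 1 was called higher without the block, 5 with the replicate block, 2 with DESeq2, 0 to 1 when each sample was left out and 1 to 6 when each number was left out of the block, and 0 were called lower in any of these. RLE factors, upper-quartile factors, no filter and a minimum of 10 reads in every sample each called 1. Of all genes tested, 0.774% were called higher without the block, 11.2% with it and 3.94% with DESeq2. Called lower were 1.25%, 9.43% and 4.85%. Of the genes in the related lists, 0 were called higher without the block, 10 with the replicate block, 6 with DESeq2 and 10, 9, 7 and 13 with number 1, 2, 3 or 4 left out of the block, and 0 lower against 1, 2 and 0 to 3. The block ended or turned no other call. *B2m* kept its direction in all 18 alternatives (log2 fold change 0.45 to 0.66, edgeR or DESeq2 adjusted p 2.44e-05 to 0.119) and was called in 11. Every tested gene of the 10 was positive in all alternatives that tested it (17 for *H2-Ab1*), *Cd74* between 0.11 and 0.76. Direction turned for *Ctsl* (-0.0447 with the block, -0.0138, -0.1957 and -0.0054 with number 1, 2 or 3 left out of it, -0.3425 to 0.1726 with samples left out), *Icam1* (-0.67 to 0.25 with samples left out) and *Nfya* (-0.0351 to 0.0678 with samples left out, -0.0108 with the block and without number 1), and the cause was not tested. With samples left out, all genes called ran from 0 higher and 0 lower (leaving out DMSO sample 3, DMSO sample 4 or IOX5 sample 3) to 130 and 333 (leaving out IOX5 sample 4). At this depth, *Ciita*, *H2-Aa* and *H2-Eb1* could not be tested. The *B2m* to heavy chain ratios and their left-out values (0.25 to 0.35 for *H2-K1*, 0.23 to 0.34 for *H2-D1*) were added after seeing the data.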
